A study of Drosophila melanogaster and Drosophila simulans and Drosophila yakuba with 30 samples.

Results

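The Dichaete-Dam landscape of D. yakuba embryos comprised 2 lists of binding intervals, the 26563 intervals placed on the D. yakuba genome and the 20964 intervals obtained after the reads were translated to D. melanogaster coordinates. Together these 47527 intervals were taken whole, with no selection on any measured value, from the 197964 intervals of the 12 lists of the series. The libraries behind both lists came from D. yakuba strain Cam-115, with 3 biological replicates of a line carrying Dichaete-Dam and 3 of a line carrying Dam alone, 6 of the 30 libraries of the series. All were whole embryos of 0 to 16 h from flies kept at 25 °C, so each interval is an average over embryonic stages and tissues. Both transgenes were piggyBac insertions marked with EGFP, with UAS sites and an Hsp70 promoter, but the fusion carried a 5′ UTR of kayak and the Dam-only control one of SV40. The fused protein was the D. melanogaster Dichaete and not the D. yakuba one. Cell types could not be checked against markers, since the lists hold no expression values.

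Dichaete is a group B Sox protein, a transcription factor with a single HMG box that binds in the minor groove and bends DNA. In Drosophila it acts in segmentation and in the early central nervous system, partly alongside the related SoxNeuro. In DamID the Dam methylase of E. coli, tethered to such a protein, adds a methyl group to the adenine of GATC sites near the places it visits. Free Dam methylates accessible chromatin everywhere, so the fusion is read against Dam alone, and the unit of measurement is the stretch between neighbouring GATC sites, the GATC fragment.

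The authors counted reads per GATC fragment, tested the fusion against Dam alone with DESeq2, kept fragments enriched in the fusion at an adjusted p-value under 0.05 and joined those within 100 bp. What was deposited, and what is described here, is for each interval its start, its end and the number of fragments joined. The 3 fusion and 3 control libraries enter a list together. No spread between replicates, no read depth and no test across samples can be given, and 95% intervals on shares (Wilson) and on medians (order statistics) cover counting error only. Differences between lists or chromosomes are descriptions of these lists, and rose or fell states only the order of the values.

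The sequence in question is short. Among the motifs that the study found in its D. yakuba and D. pseudoobscura Dichaete-Dam intervals, these are the consensus sequences matched to Sox proteins, shown because they are what an HMG box would be expected to meet inside an interval.
D. yakuba: tACAATgg
D. pseudoobscura: ACAATaga
The capitals mark the ACAAT core present in both, which is typical of Sox sites. They are read 5′ to 3′, and the motif search itself was not repeated. An interval ends at GATC sites whatever the place of such a motif within it, so the interval limits the position of binding only to within its own length.

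On the D. yakuba genome (UCSC droYak2), Dichaete-Dam intervals covered 35.5 Mb in 26563 intervals, with a median length of 893 bp (880 to 905 bp). The lower and upper quartiles of length were 478 and 1680 bp. The shortest interval was 4 bp, the length of a fragment between abutting GATC sites, and the longest was 17965 bp. Intervals contained a median of 3 and a mean of 4.24 GATC fragments, and 7915 of them (29.8%, 29.3 to 30.4%) were a single fragment. The authors had extended reads to 200 bp before counting. An extended read that reaches any of the 1282 intervals under that length (4.83%) therefore also reaches beyond it. Reads near the edge of a longer interval can be shared with neighbouring fragments too.

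Density was nearly even over the large arms. There were 185 intervals per Mb on 2L, 185 on 2R, 185 on 3L, 181 on 3R and 174 on X, each arm measured up to the end of its last interval. The share of bases covered was 24.2% on 2L, 24.5% on 2R, 24.9% on 3L, 23.5% on 3R and 23.7% on X. Their median lengths ran from 845.5 bp on 2L (809 to 874 bp) to 911 bp on X (876 to 940 bp). The X was thus 0.945 times as dense in intervals as the large autosome arms together, and 0.978 times as densely covered, since its intervals were longer.

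Chromosome 4 stood apart from all other main chromosomes. It is the small dot chromosome, known in D. melanogaster for heterochromatin-like packaging throughout its gene-bearing part. Its 369 intervals lay at 269 per Mb and covered 54.4% of its 1.37 Mb, which was 1.47 times the interval density and 2.24 times the coverage of the large autosome arms. The difference in coverage was larger because the intervals were also longer, with a median of 1527 bp (1336 to 1809 bp). Fragments were longer too, at 395 bp of interval per GATC fragment against 289 bp on the large autosome arms, so the greater length was only partly a greater number of fragments, with means of 5.12 and 4.57. Of the intervals on chromosome 4, 21.4% (17.5 to 25.9%) were a single fragment and 10.6% (7.83 to 14.1%) reached 4000 bp, compared with 27.1% and 4.80% on the large autosome arms.

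**Figure D1:**
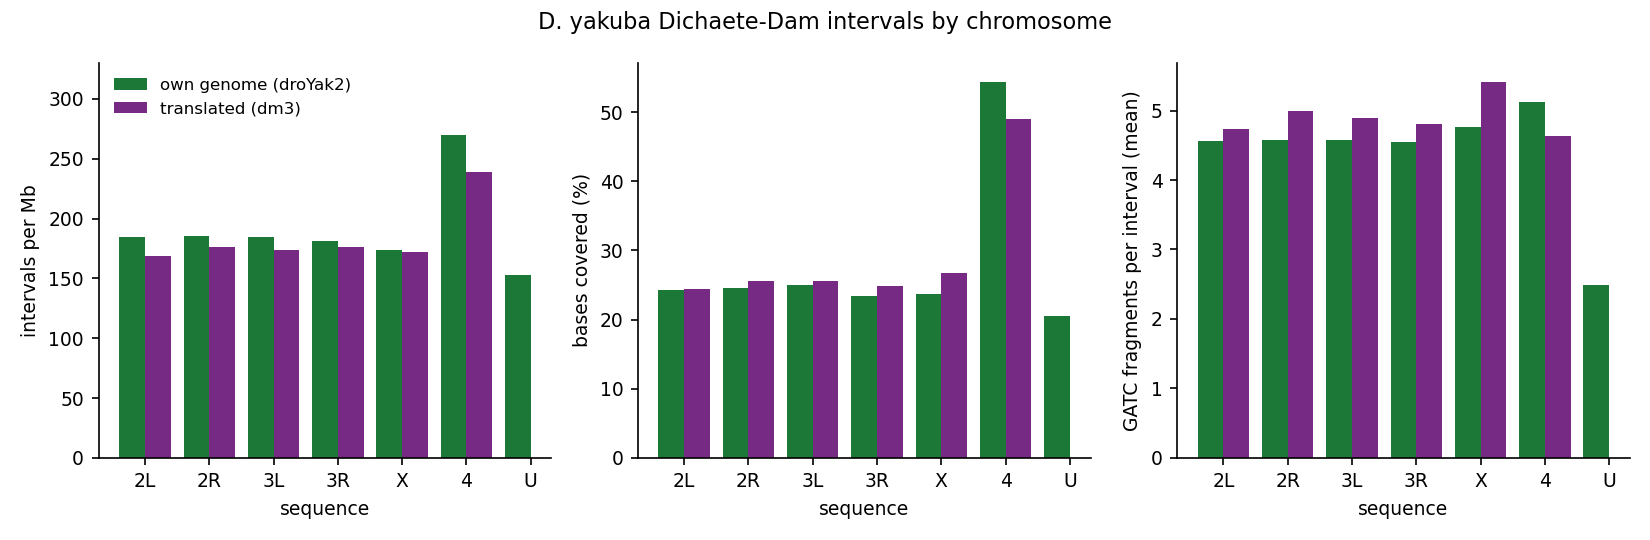
Intervals per Mb, percentage of bases covered and mean number of GATC fragments per interval for the main chromosomes and the unplaced sequence U (x axis), in the own genome (green) and after translation (purple); bars start at 0 and have no error bar because replicates are pooled. Chromosome 4 has 269 and 239 intervals per Mb against 169 to 185 on the other arms, and U has the fewest fragments per interval (2.49).

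Unplaced and heterochromatic sequence held 4688 of the intervals (17.6%, 17.2 to 18.1%), of which 4303 were on U, the collection of sequence not assigned to a chromosome. On U there were 153 intervals per Mb of its assembly coordinates, covering 20.5%. Intervals on U were longer than those of the main chromosomes, with medians of 969 bp (936 to 1006 bp) and 880 bp (866 to 894 bp), but contained only 2.49 fragments on average, and 43.2% (41.7 to 44.6%) were single fragments. The corresponding length per fragment was 538 bp in assembly coordinates, compared with 289 bp on the large autosome arms. Whether GATC sites were farther apart in the sequence itself was not tested, since no genome sequence was used. The 5 sequences whose names end in h, which hold heterochromatic sequence, contained 385 intervals. Their densities ran from 70.4 per Mb on Yh, with 8 intervals, through 162 on 3h, 168 on Uh and 202 on 2h, to 218 on Xh, with 37 intervals. Of these 385 intervals, 40.0% (35.2 to 45.0%) were single fragments, and their median length was 843 bp (786 to 948 bp).

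Intervals followed each other at a median distance of 2154 bp (2115 to 2193 bp) on the D. yakuba genome. Neighbours were at least 101 bp apart, as the joining at 100 bp requires, and 25.0% of gaps were 1000 bp or less. The distribution had a long upper tail. Percentile 95 of the gaps was 15358 bp, 508 gaps reached 25 kb, and those 508 gaps made up 17.8% of all bases between intervals. The largest gap, 144838 bp, was on X. The median gap was much alike on the large arms, from 1981 bp on 2L (1882 to 2065 bp) to 2090 bp on X (1967 to 2190 bp). On chromosome 4 it was 1220 bp (1080 to 1387 bp), 41.3% of gaps were 1000 bp or less, and the largest was 11982 bp. On U the median was 3083 bp (2937 to 3226 bp). U collects unassigned sequence, so neighbours on it need not be neighbours on a chromosome. On the main chromosomes alone the median was 2028 bp (1990 to 2066 bp).

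Counted by where intervals start, the 1193 complete windows of 100 kb on the main chromosomes held a median of 19 intervals, with percentiles 5 and 95 at 6 and 29. The variance of the count was 2.79 times its mean. This ratio was similar on the individual large arms, between 2.57 on 3L and 2.93 on 3R. It was 0.444 over the 13 windows of chromosome 4, where counts stayed between 20 and 32, and 1.09 over the 281 windows of U. A window of U need not be a single region of a chromosome. In the own genome the large arms thus had both rich and poor windows, whereas chromosome 4 had neither poor windows nor gaps of 25 kb.

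**Figure D2:**
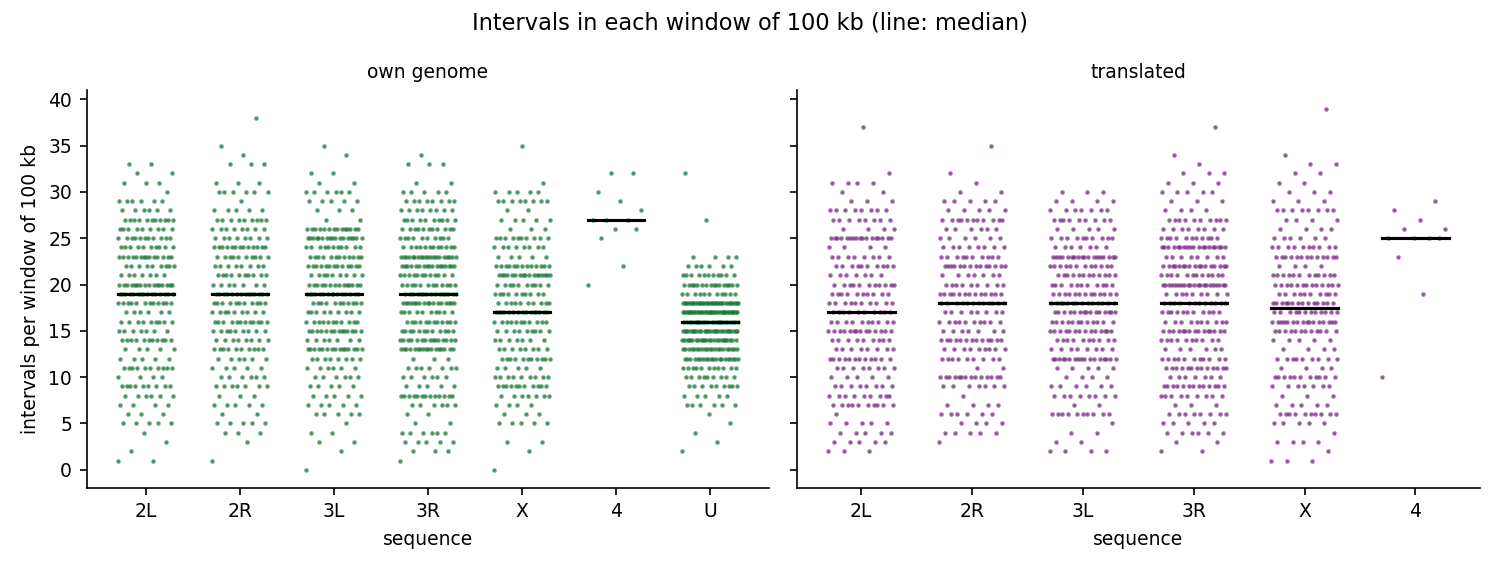
Number of intervals starting in each complete window of 100 kb (points, spread sideways so that equal counts remain visible; black line, median) by sequence, for the own genome and the translated list. In both lists each large arm ranges from 3 or fewer intervals to 30 or more, and the 13 own-genome windows of chromosome 4 range from 20 to 32.

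The densest window of the D. yakuba genome was chr2R:9500001-9600000, with 38 intervals. It was not a broad bound region, since its intervals had a median length of 705.5 bp, the longest measured 3339 bp, and together they covered 32.3% of it. The windows on either side held 12 and 25 intervals. Next came chr2R:8600001-8700000, chr3L:12100001-12200000 and chrX:3500001-3600000, each with 35 intervals and with 32.7%, 41.4% and 46.0% of bases covered. The fifth, chr2R:1600001-1700000, had 34 intervals and directly followed a window with 33. Windows on 3L and 3R also had 34, so the order among these is arbitrary.

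Ranking by bases covered gave other windows. The leading 5 were chr4:1-100000 (67.0% covered by 22 intervals), chr3L:3200001-3300000 (66.9% by 26), chr4:1100001-1200000 (65.3% by 20), chr3L:700001-800000 (65.3% by 22) and chrX:200001-300000 (64.0% by 30). None of them was among the 5 windows with most intervals. Across the genome 36 windows were at least 50% covered, and 9 of these were among the 13 windows of chromosome 4. At the other end, chr3L:2600001-2700000 and chrX:7600001-7700000 contained no interval start and no covered base, and 4 further windows of the main chromosomes contained 1 interval start each.

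Each large arm was divided into 10 equal segments, numbered from the start of its coordinates. Segment 1 of 2R and of 3R was the densest of its arm, with 233 and 226 intervals per Mb, against 141 to 224 and 154 to 201 in the other segments. Coverage there was 31.8% and 31.7%. On X the highest density was in segment 5 (221 per Mb) and the lowest in segment 4 (134 per Mb). On 2L and 3L the segments lay between 152 and 224 per Mb.

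Broad intervals, defined here as those of at least 4000 bp, numbered 1274 in the D. yakuba genome, 4.80% (4.55 to 5.06%) of all intervals and 21.0% of all bases covered. The boundary is arbitrary, with 85 intervals within 100 bp below it and 86 within 100 bp above, and the intervals nearest to it measured 3999 and 4002 bp. On the main chromosomes there were 1093, at 7.87 per Mb on 3R, 9.05 on 2L, 9.19 on 2R, 9.37 on X and 9.39 on 3L. Chromosome 4 had 39, or 28.5 per Mb. The main chromosomes' broad intervals had a median length of 5304 bp and joined a median of 17 GATC fragments. Of the 1193 windows of 100 kb on the main chromosomes, 558 had none and 113 had 3 or more, and the variance of the number per window was 1.38 times its mean of 0.912. The window with most was chr3L:700001-800000, with 7 broad intervals. The remaining broad intervals were chiefly the 169 on U, where the median number of fragments was 4, and 78 of the 169 had at most 3.

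The 10 longest intervals on the D. yakuba genome reflect this division. The longest, chrU:16685405-16703369, was 17965 bp but joined only 2 fragments, as did chrU:13660035-13674341, of 14307 bp. In such an interval the length does not measure how many GATC sites were involved. The second, chr3L:4793598-4810498, joined 81 fragments over 16901 bp, the most of any interval in this list, at 209 bp per fragment. Another 3L interval, chr3L:15033955-15050625, joined 59 fragments in 16671 bp, and chr3L:598076-614023 joined 55 in 15948 bp. Thus 3 of the 5 longest intervals were on 3L, which held 227 of the 1274 broad intervals. The remaining ones were chr2R:2049323-2065789 (38 fragments), chrX:7810298-7826243 (48), chr4:35311-50945 (34), chr2R:10295212-10309938 (31) and chr3R:16126083-16140617 (52), all between 14535 and 16467 bp. The chromosome 4 interval lay within the most covered window of the genome.

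The same reads translated to D. melanogaster coordinates (UCSC dm3) gave 20964 intervals, all on chromosomes 2L, 2R, 3L, 3R, X and 4. Translation here means that LiftOver moved each mapped read to dm3, accepting reads of which a minMatch of 0.7 could be carried over, and that GATC fragments of the D. melanogaster genome were then counted and tested anew. The translated list is therefore a second measurement on another set of fragments and not a copy of the first. Its number was 78.9% of that on the own genome. Of the own-genome intervals, 4688 lay on U and heterochromatic sequence, which the translated list does not have. Whether reads from there were moved to the main chromosomes was not tested. On the main chromosomes the number fell from 21875 to 20964, by 4.16%.

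While the number of intervals fell, what they contained grew. On the main chromosomes the bases covered rose from 29.3 to 30.9 Mb (by 5.41%) and the total of GATC fragments from 100823 to 103890 (by 3.04%). The median length rose from 880 bp (866 to 894 bp) to 944 bp (929 to 958 bp), and the mean number of fragments per interval from 4.61 to 4.96. The median number of fragments was 3 in both. Length per fragment was 290 bp before and 297 bp after translation, so both the number of fragments and their length entered the growth. On 2L fragments were fewer and longer (288 and 306 bp), whereas on X they were more numerous at about the same length (287 and 286 bp).

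The largest classes of interval gained in number, while most of the smaller classes lost. Intervals with 1 fragment fell by 5.93%, those with 2 by 5.11%, those with 3 to 5 by 7.34% and those with 6 to 10 by 3.44%. Those with 11 to 20 fragments rose by 4.67%, from 1672 to 1750, and those with over 20 rose by 36.0%, from 414 to 563. By length, intervals of 250 to 500 bp fell by 17.3%, whereas those of 4000 to 8000 bp rose by 15.0% and those of at least 8000 bp rose by 91.3%, from 127 to 243. The shortest class was an exception to this order, since intervals under 250 bp rose by 7.01%, from 1698 to 1817.

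**Figure D3:**
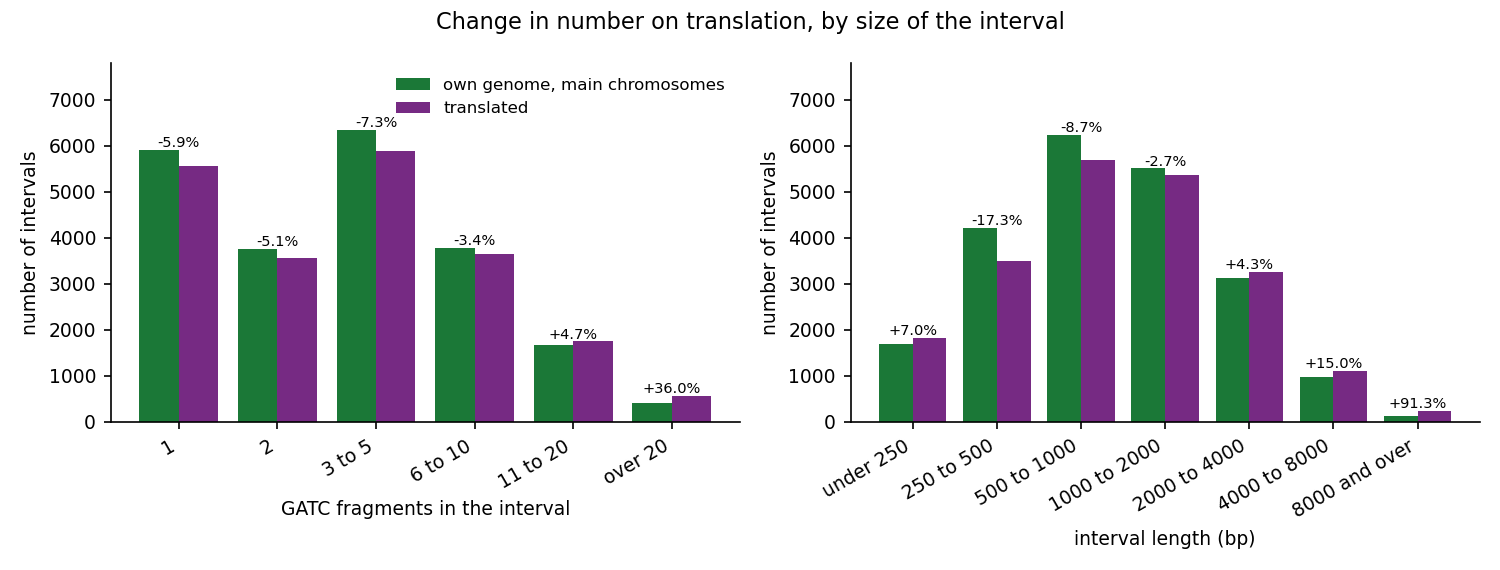
Number of intervals on the main chromosomes in the own genome (green) and after translation (purple), by number of GATC fragments (left) and by length (right); the percentage over each pair is the change in percent. Classes up to 6 to 10 fragments fell by 3.4 to 7.3%, and intervals with over 20 fragments rose by 36.0%.

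With gaps of up to 1000 bp closed in both lists, a choice made after seeing the values, the main chromosomes held 16264 intervals on the own genome and 15346 after translation. The translated number was still the lower, by a ratio of 0.944 against 0.958 without closing.

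Chromosome by chromosome, translation acted in 3 ways. On each of the large autosome arms the number fell while coverage rose. The number went from 4122 to 3884 on 2L (by 5.77%), 3917 to 3722 on 2R (by 4.98%), 4465 to 4267 on 3L (by 4.43%) and 5222 to 4920 on 3R (by 5.78%). Bases covered rose by 4.21% on 2L, 4.66% on 2R, 3.77% on 3L and 2.72% on 3R. The total of fragments changed little and not in 1 direction, with 2.13% fewer on 2L, 0.513% fewer on 3R, 3.70% more on 2R and 2.24% more on 3L. The median length rose by 104.5 bp on 2L and by 50.5 to 54 bp on the other 3. The arms of chromosome 2 are also not the same pieces of DNA in both genomes, because D. yakuba carries a pericentric inversion of that chromosome relative to D. melanogaster. Taken over both arms, chromosome 2 went from 8039 to 7606 intervals (by 5.39%) and chromosome 3 from 9687 to 9187 (by 5.16%), and their fragment totals changed by 0.716% and 0.760%.

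On X the number rose instead, from 3780 to 3865 intervals (by 2.25%). Bases covered rose from 5.16 to 5.98 Mb (by 15.9%) and fragments from 17987 to 20927 (by 16.3%), an increase of 2940 against 599 on the 4 large autosome arms together. The mean number of fragments per interval went from 4.76 to 5.41, the highest of the translated chromosomes, and broad intervals from 204 to 284. Per Mb the X was no denser than before, with 172 intervals after translation and 174 in the own genome, because the coordinates of X extended to 22.4 Mb in dm3 and 21.8 Mb in droYak2. Its coverage nevertheless went from 23.7% to 26.7%. Relative to the large autosome arms the X moved from 0.945 to 0.992 in interval density and from 0.978 to 1.06 in coverage. In D. simulans the own-genome list had 2221 intervals on X and 638 on X sequence without an assigned position (X_random), and the translated X had 2786. The D. yakuba list has no such sequence for X apart from Xh, with 37 intervals, and which chromosome the intervals on U belong to was not tested.

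On chromosome 4 all totals fell. Intervals went from 369 to 306 (by 17.1%), bases covered from 0.745 to 0.629 Mb (by 15.6%) and fragments from 1888 to 1416 (by 25.0%). Median length stayed within its counting error, at 1527 bp (1336 to 1809 bp) and 1575.5 bp (1421 to 1757 bp). Fewer fragments thus made up intervals of about the same length, with 444 bp per fragment after translation and 395 bp before. Even so, chromosome 4 remained the most densely bound, at 239 intervals per Mb and 49.1% of bases, 1.37 and 1.95 times the large autosome arms. The 39 broad intervals on the own genome and the 40 after translation were nearly equal in number. With broad defined from 3000 bp, also chosen after seeing the values, they went from 85 to 66.

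Broad intervals over all main chromosomes increased from 1093 to 1354 on translation, a ratio of 1.24. They took up 27.7% of bases covered, compared with 22.2% on the own genome. The ratio was 1.03 on chromosome 4, 1.13 on 3L, 1.20 on 2L, 1.24 on 2R, 1.28 on 3R and 1.39 on X. With broad defined from 3000 or 5000 bp, the ratio over all main chromosomes was 1.15 and 1.26. It was 1.11 from 10 GATC fragments and 1.10 after closing gaps of up to 1000 bp. These settings were chosen after seeing the values. On chromosome 4 they gave 0.776, 0.955, 0.667 and 0.790, so broad intervals there were fewer after translation. Over the whole lists, in which the own genome includes unplaced sequence, 1274 compares with 1354. That order turned round with broad from 3000 bp (2499 and 2413) and after closing gaps (2538 and 2370), so the increase is one of the main chromosomes.

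The longest translated interval, chr3R:8294229-8329707, measured 35479 bp and joined 95 fragments, more than any other interval of either list. It was over 20 kb longer than the longest interval of 3R in the own genome, which was 14535 bp. Of its bases, 56.9% lay in D. melanogaster Dichaete-Dam intervals, 6 in number, and none in a D. simulans interval. The second, chrX:20067732-20091816, was 24085 bp with 91 fragments, but only 10.8% of it lay in D. melanogaster intervals and 1.82% in a D. simulans one. The third, chr2L:6425368-6447716, spanned 22349 bp and 67 fragments and contained 13 separate D. melanogaster intervals covering 39.5% of it. The fourth, chr2L:22985521-23004921, was a single fragment of 19401 bp, 3016 bp from the last interval end on 2L in any dm3 list used, with no overlap in either species. The fifth, chr3L:14942432-14961782, was the one most fully matched, with 92.8% of its 19351 bp in 2 D. melanogaster intervals and 33.5% in D. simulans intervals.

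The other 5 were chr3R:16088749-16106436, chr2R:17077366-17094512, chr3R:22958478-22975377, chrX:3837292-3854075 and chr2L:8720107-8736880, between 16774 and 17688 bp, with 33, 52, 37, 74 and 46 fragments. D. melanogaster intervals covered 23.6 to 40.9% of each, and D. simulans intervals 8.42 to 32.6%. Genes could not be assigned to these intervals, since no annotation of dm3 or droYak2 was used.

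**Figure D4:**
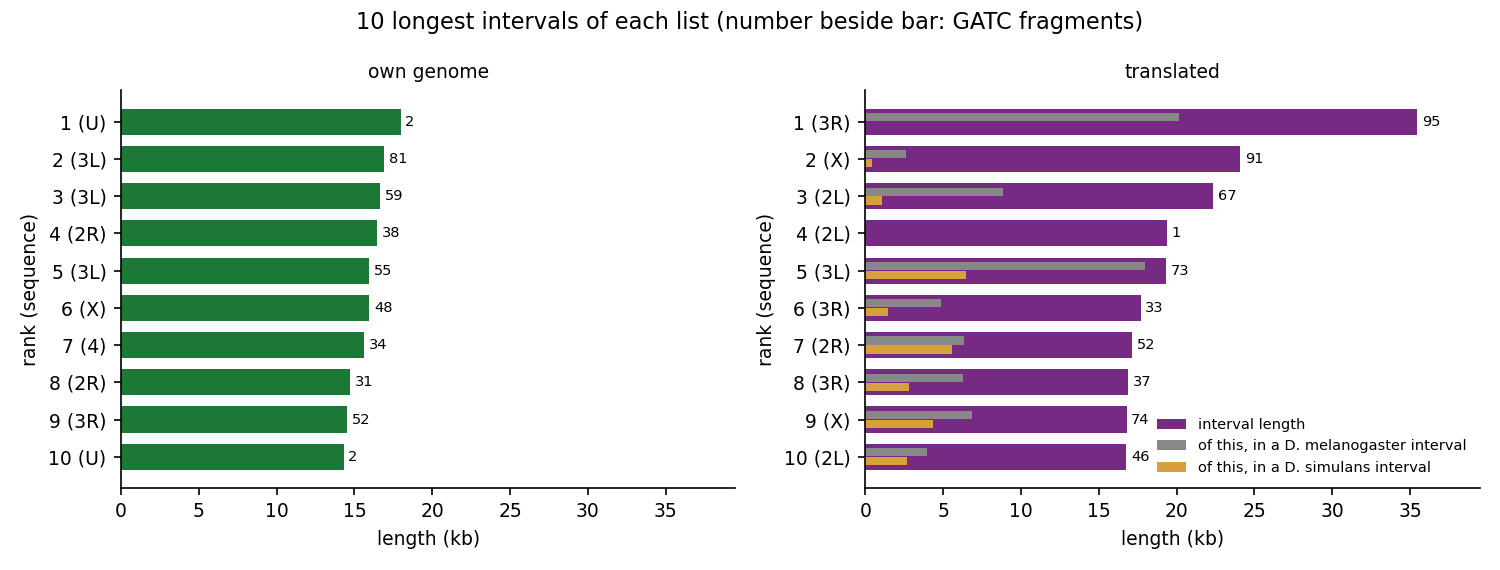
Length in kb (bars) of the 10 longest intervals of each list by rank and sequence, with the number of GATC fragments beside each bar; in the translated list the narrow grey and orange bars give the bases that lie in D. melanogaster and D. simulans intervals. The leading translated interval measures 35479 bp with 95 fragments, and intervals on U reach 17965 bp with 2.

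Spacing in the translated list was similar at its centre, with more gaps of at least 25 kb. The median gap was 1982 bp (1944 to 2020 bp), compared with 2028 bp (1990 to 2066 bp) on the main chromosomes of the own genome. Gaps of at least 25 kb numbered 503 against 434 and made up 22.9% of the bases between intervals, compared with 19.8%. The largest gap was 130636 bp, on 3R, compared with 144838 bp on X in the own genome. On X the median gap shortened from 2090 bp (1967 to 2190 bp) to 1875.5 bp (1793 to 1961 bp), and 29.0% of its gaps were 1000 bp or less. On chromosome 4 it was 1331 bp (1146 to 1545 bp), and 1 gap there reached 25 kb, at 30149 bp. The 12 translated windows of chromosome 4 held 10 to 29 intervals, with a variance 1.08 times the mean.

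The most crowded translated window was chrX:15700001-15800000, with 39 intervals and 48.4% of bases covered. It was followed by chr2L:14300001-14400000 and chr3R:25600001-25700000, with 37 each, chr2R:13300001-13400000 with 35, and chr3R:17200001-17300000 with 34, a number shared by a window on X. By bases covered the leading windows were chrX:3700001-3800000 (75.1% by 20 intervals), chr2R:3600001-3700000 (67.0% by 29), chr3L:700001-800000 (66.8% by 23), chr4:1000001-1100000 (66.8% by 25) and chrX:200001-300000 (66.7% by 21). The chrX:3700001-3800000 window had 9 broad intervals, the most in the list. Windows numbered alike on 3L and X, 700001-800000 and 200001-300000, led in the own genome as well, although coordinates in droYak2 and dm3 need not mark the same sequence. Windows at least 50% covered numbered 55 of 1201 (4.58%), compared with 36 of 1193 (3.02%) on the main chromosomes before translation. On X they went from 3 to 16 and on chromosome 4 from 9 of 13 to 5 of 12.

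The segment with the fewest translated intervals differed from that of the own genome on each large arm. On X it was segment 10, with 111 intervals per Mb and 14.0% of bases covered, against 161 to 216 per Mb in the other segments. In the own genome segment 10 of X had 156 per Mb. On 2R segment 1 had 125 per Mb in the translated list and 233 in the own genome. On 3L segment 10 had 132 per Mb, compared with 178. Segments of the same number need not hold the same sequence in droYak2 and dm3, and chromosome 2 also differs by the inversion. These pairs of values therefore do not follow 1 region through translation. The 3 translated windows with a single interval were all on X, and 2 of these were chrX:21500001-21600000 and chrX:21700001-21800000, in segment 10.

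Set against the D. melanogaster list in the same coordinates, the translated D. yakuba list had about the same number of intervals, 20964 and 20848, but these were longer. The median was 944 bp (929 to 958 bp) in D. yakuba and 671 bp in D. melanogaster, and broad intervals numbered 1354 and 636. The mean number of fragments was 4.96 and 4.31. The translated D. simulans list had 16119 intervals with a median of 568 bp, 161 of them broad. Species and fly line cannot be told apart in these lists. D. melanogaster reads were not translated and depth is unknown, so these cannot be told apart from species either. On chromosome 4, D. yakuba with 239 intervals per Mb and 49.1% covered and D. melanogaster with 286 per Mb and 39.0% both stood above their large autosome arms. In D. simulans that chromosome had 119 per Mb, below the 136 per Mb of its large autosome arms.

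The share of translated D. yakuba intervals sharing at least 1 bp with a D. melanogaster Dichaete-Dam interval varied little over the large arms. It was 58.4% on 2L (56.9 to 60.0%), 57.7% on 2R (56.1 to 59.3%), 56.5% on 3L (55.0 to 58.0%), 56.4% on 3R (55.0 to 57.8%) and 55.3% on X (53.7 to 56.9%), with neighbouring values inside each other's counting error. On chromosome 4 it was 69.0% (63.6 to 73.9%), where each list covered more of the sequence than on the other arms. Measured in bases, 41.6% of the D. yakuba intervals of chromosome 4 lay in a D. melanogaster interval, compared with 42.1% on X and 44.2 to 45.2% on the autosome arms. These shares have to be read against how much of each chromosome D. melanogaster intervals cover, which was 39.0% of chromosome 4 and 17.4 to 18.8% of the other arms. The overlap in bases was thus 1.07 times that coverage on chromosome 4 and 2.36 to 2.54 times on the other arms. With D. simulans the shares were 41.8% on X (40.3 to 43.4%), 44.4 to 47.4% on the autosome arms and 30.7% on chromosome 4 (25.8 to 36.1%). In bases the D. simulans overlap was 1.16 times coverage on chromosome 4 and 2.66 to 2.83 times on the other arms.

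Overlap was graded by the number of fragments. Of single-fragment intervals 23.5% (22.4 to 24.6%) were overlapped in D. melanogaster. The share was 42.1% with 2 fragments, 64.1% with 3 to 5, 86.0% with 6 to 10, 96.2% with 11 to 20 and 98.8% (97.5 to 99.4%) with over 20. A longer interval meets another list more easily whatever its content, and the share of bases, which is less exposed to this, also rose, from 16.6% in single fragments to 58.8% in the largest class. The D. simulans list gave the same order at a lower level, from 15.0% to 94.8% of intervals and from 10.7% to 41.5% of bases. D. melanogaster intervals cover 18.2% of the main chromosomes and D. simulans intervals 11.04%. In bases, single-fragment intervals were therefore overlapped at 0.912 and 0.972 times the coverage of the other list, and those with over 20 fragments at 3.23 and 3.76 times.

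**Figure D5:**
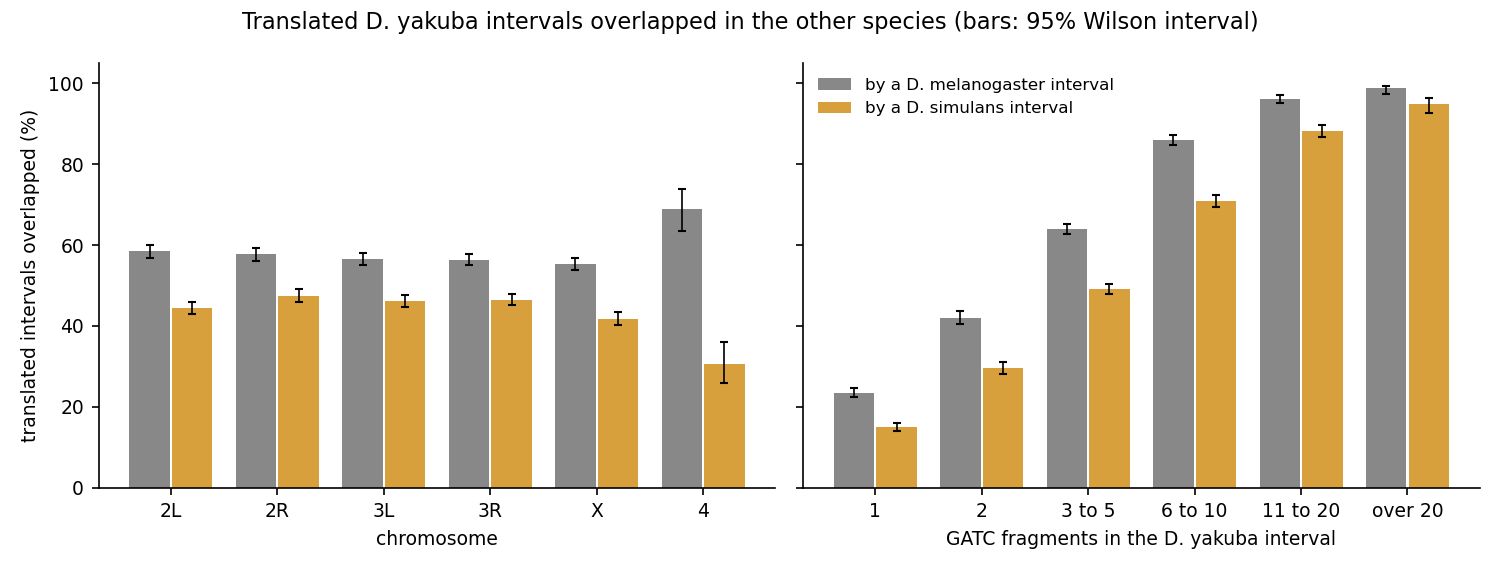
Percentage of translated D. yakuba intervals that share at least 1 bp with a D. melanogaster (grey) or D. simulans (orange) Dichaete-Dam interval, by chromosome and by number of GATC fragments; error bars are 95% Wilson intervals and cover counting error only. The large arms lie between 55.3 and 58.4% for D. melanogaster, and the classes rise from 23.5% with 1 fragment to 98.8% with over 20.

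Of the translated intervals, 7776 (37.1%, 36.4 to 37.7%) overlapped intervals of both other species, 4177 (19.9%) only D. melanogaster, 1681 (8.02%) only D. simulans and 7330 (35.0%, 34.3 to 35.6%) neither. Median lengths were 1751 bp for the first and 626 bp for the last. Of single-fragment intervals, 68.9% (67.7 to 70.1%) overlapped neither. Of the 563 with over 20 fragments, 3 did. X had the largest share without overlap, 38.2% (36.6 to 39.7%), against 33.8 to 34.6% on the large autosome arms and 29.4% (24.6 to 34.7%) on chromosome 4. Because both species were tested on the same dm3 fragments, intervals can also coincide exactly. Both ends were identical to those of a D. melanogaster interval in 1044 cases (4.98%) and 1 end in a further 4868 (23.2%).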

How the data were processed

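DamID-seq libraries of D. yakuba embryos (3 Dichaete-Dam and 3 Dam-only) were processed by the authors. After adapter removal (Cutadapt) and mapping to droYak2 (bowtie2), they lengthened reads to 200 bp and counted them with bedtools 2.21.1 on the GATC fragments that HOMER 4.7 located. The authors then compared fusion and control with DESeq2 1.6.1. Fragments enriched in the fusion were kept, and those within 100 bp merged. For the translated list, reads were moved to dm3 by LiftOver and tested again. The paper describes single-end reads and the sample labels paired-end reads for the MiSeq runs. The deposited lists give the start, end and number of merged fragments of each interval, with no header, so the meaning of the fragment number was read from its values. They carry no read counts, so depth per sample is unknown.

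Numbers, lengths, gaps, overlaps and windows of 100 kb were obtained in Python 3.11.15 (NumPy 2.4.6, pandas, SciPy 1.17.1). Starts are printed 1-based. The length of a chromosome is the largest interval end, in the own list for droYak2 and in any Dichaete list used for dm3. Functions were tested on simulated lists. The members and lists were chosen with earlier results of these data known. The text names the 10 longest intervals and the 5 leading windows by number and by bases of each list. No genome or annotation of droYak2 or dm3 was used, so no gene was placed and no motif sought. Lists of D. pseudoobscura and SoxN were not used here. Alternatives were main chromosomes only, minimum lengths or fragment numbers, joining of gaps, other definitions of broad, shifted windows and stricter overlaps.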

Additional observations from a re-analysis of the deposited data

How the results depend on the processing

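No paired analysis was possible because the lists pool the replicates, and for the same reason no replicate could be left out. Of 67 values under alternatives, 30 stayed within counting error and 37 moved further. For counts, and for the ratio of broad intervals after and before translation, the limit was 1.5 times in place of counting error. For that ratio the limit would also admit a fall, and its alternatives were chosen after seeing the values. Requiring 2 fragments raised the median length to 1186.5 bp on the own genome and 1256 bp after translation, raised the median gap to 2798.5 and 2452 bp, and raised the translated share of own-genome intervals to 82.6%. Keeping the main chromosomes raised that share to 95.8% and lowered the own-genome median gap to 2028 bp and the single-fragment share to 27.0%. That share was 16.5% among own-genome and 14.3% among translated intervals of at least 500 bp. Joining gaps of up to 1000 bp gave median lengths of 1191 and 1279 bp and 2538 and 2370 broad intervals. Broad intervals numbered 2499 and 2413 from 3000 bp, 750 and 835 from 5000 bp, and 2576 and 2786 from 10 fragments. Measured in bases, the translated X had 1.06 times the density of the autosome arms. Overlap with D. melanogaster on 2L, 2R, 3L and 3R became 56.6%, 55.8%, 55.0% and 54.9% when 100 bp were required. Requiring 50% of the interval gave 37.9%, 38.7%, 37.5%, 37.2%, 35.9% (X) and 39.2% (4), and a D. melanogaster threshold of 0.01 gave 50.3%, 49.9%, 48.5%, 48.9%, 47.2% (X) and 60.5% (4). Depth per library is unknown, so what depth limits could not be measured.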

Other observations

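Single-fragment intervals were short on the main chromosomes and long on unplaced sequence. Their median length was 390 bp on the main chromosomes of the own genome, 621 bp on U and 413 bp after translation. Of the 1857 single-fragment intervals on U, 250 reached 2000 bp and 37 reached 4000 bp, whereas 27 and 1 of the 5904 on the main chromosomes did. After translation 45 of 5554 reached 2000 bp.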
